A study of Mus musculus with 20 samples.

Results

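The knee joints of mice treated with TLR3 pathway activated mesenchymal stromal cells (TLR3-MSC) were compared with the knee joints of mice treated with non-activated cells (MSC). The joints were chosen by their sample labels alone, and the 10 joints compared, 5 in each group, belong to a series of 20. All animals were 12-week-old males of the strain C57BL/6Nci with destabilization of the medial meniscus (DMM) of the right knee, a surgical model of osteoarthritis. Both groups were given 250000 adipose-derived MSC per injection into the operated joint, in weeks 3 and 5 after surgery. They differ in that the TLR3-MSC had first been cultured with polyinosinic-polycytidylic acid, a synthetic double-stranded RNA, at 10 µg/mL for 2 h. The series also holds 5 control joints, which had DMM and needle insertion without cells, and 5 STING-MSC joints, whose cells had been exposed to cGAMP. Both enter the fits of all 20 joints and share in the estimate of the spread behind every p. Otherwise they are used only to show where they lie for the same genes.

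The donor cells came from the pooled fat of mice of the same strain and a single pool served all recipients, so other donor pools were not analysed here. The tissue was the whole minced knee with cartilage, synovium, capsule and the adjoining bone, and messenger RNA of all its cell types, with any injected cells that remained, was sequenced together. In such tissue fewer cells of a type and less RNA per cell cannot be told apart. Joints were collected 8 weeks after surgery. Another passage of the source text places collection on the day after an injection, so the time between treatment and sampling is uncertain.

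TLR3 is a receptor of endosomes that binds double-stranded RNA and signals through the adaptor TRIF, encoded by Ticam1, to interferon regulatory factors and NF-kB. In the joint, the cytokine IL-1β drives the release of matrix-degrading enzymes by cartilage and synovial cells, and the transcription factors C/EBPβ and C/EBPδ are part of the response of many cell types to such cytokines. Immediate-early genes such as Fos and Zfp36, and inhibitors of NF-kB such as Nfkbia, are switched on within the same response and partly switch it off.

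The values below are normalized counts, the reads of a gene divided by a size factor for each joint, and they are given in the order of replicates 1 to 5. Fold changes are on the scale of log2(normalized count + 1), positive where TLR3-MSC joints were higher. The added 1 understates the change of low genes, but a single joint listed at 0 can widen it. Gdf5 was at 1.85 on this scale with MSC joint 5, where it was listed at 0, and at 1.30 without that joint. In edgeR it was at 0.70 with all joints, and the reason for that lower value was not tested. They were tested with limma over all 14793 genes. Genes with an unadjusted p of 0.05 or less are called higher or lower, and the false discovery rate (FDR) is the Benjamini-Hochberg adjusted p over all genes. Between the groups 279 genes were higher, 1.89% of those tested, and 295 were lower, 1.99%, which is 574 genes or 3.88% together. That share is below the 0.05 that such a threshold lets through where no gene differs. In limma 0 genes reached an FDR of at most 0.05, while edgeR gave 1 such gene and DESeq2 gave 7 on the recovered reads. For the genes given below with a fold change the limma FDR was 0.978 unless another value is given. The median log2 fold change of all genes was 0.03, with 8497 genes positive and 6296 negative. After quantile normalization that median was −0.01.

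The joints of the groups did not overlap for 86 genes, 0.581% of those tested. Of these, 40 (0.27%) were higher and 46 (0.311%) lower in every TLR3-MSC joint. The 0.581% is below the share of 0.00794 that full separation in either direction reaches where no gene differs. That value is the smallest p of an exact permutation test between these groups. Separation alone is thus no evidence of a difference. A gene was counted as steady when its joints did not overlap and its unadjusted p was at most 0.05 in the same direction with all joints and in each of the 10 fits that leave out 1 joint of these groups. There were 27 steady higher genes, 0.183% of those tested, and 26 steady lower genes, 0.176%. Their log2 fold changes ranged in size from 0.14 to 1.36 for the higher genes and from 0.19 to 1.54 for the lower genes, and their FDR from 0.0878 to 0.978. These genes were picked by the values described below, and the percentages are the background for any count among them.

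**Figure D1:**
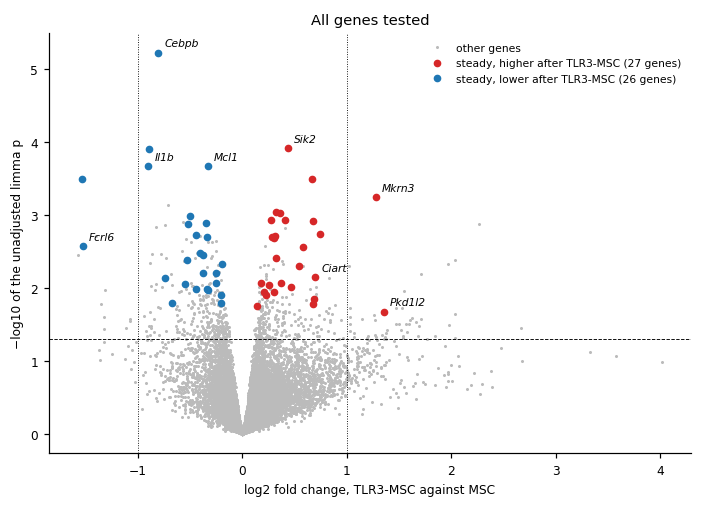
Each point is 1 of 14793 genes, with the log2 fold change of TLR3-MSC against MSC joints on the x axis and −log10 of the unadjusted limma p on the y axis. Red points are the 27 steady higher genes and blue points the 26 steady lower genes. The dashed line marks a p of 0.05 and the dotted lines a fold change of 2. Cebpb stands highest among the lower genes and Sik2 among the higher genes, and most steady genes lie inside the dotted lines.

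The transcription factor Cebpb and the cytokine Il1b were lower in every TLR3-MSC joint than in every MSC joint. Cebpb (chromosome 2, 167530835 to 167532339, plus strand) encodes C/EBPβ, and its counts were 1394, 1280.0, 1586, 1481 and 1439.9 in the TLR3-MSC joints and 2054, 2052, 3133, 3507 and 2114 in the MSC joints. MSC joints 3 and 4 were the highest, and the TLR3-MSC joints lay close together below all MSC joints. In TLR3-MSC joints the mean was 1436 ± 112, and in MSC joints it was 2572 ± 696 (SD, n = 5 each), with a log2 fold change of −0.80 (standard error 0.13) and an FDR of 0.0878, the lowest of all genes. The adjusted p was 0.0442 in edgeR and 2.17e-05 in DESeq2. Leaving out any 1 joint kept the fold change between −0.87 and −0.68.

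Il1b (chromosome 2, 129206490 to 129213060, minus strand) encodes the cytokine IL-1β. Its counts were 576, 531, 459.8, 711 and 509 in the TLR3-MSC joints and 932, 775, 1639, 1349 and 726 in the MSC joints. The groups did not overlap, although the highest TLR3-MSC joint, replicate 4, came close to MSC joint 5. The mean was 557 ± 95.4 against 1084 ± 395 (SD, n = 5 each), with a log2 fold change of −0.90 (standard error 0.20). Its adjusted p was 0.633 in limma, 0.424 in edgeR and 0.0127 in DESeq2. Il1b is also a neutrophil gene, and the summed count of 20 neutrophil markers, Il1b included, ran from 653211 to 990188 in TLR3-MSC joints and from 681708 to 1166300 in MSC joints, with 19 of the 20 markers lower on average after TLR3-MSC. Of these markers 1, Il1b itself, was called, against 3.88% of all genes. The part of neutrophil content in the Il1b result was not tested.

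Nfkbia and Plaur stood at levels well above those of Il1b and differed less in proportion. Nfkbia (chromosome 12, 55536195 to 55539433, minus strand) encodes the inhibitor IκBα, which holds NF-kB in the cytoplasm and is itself induced by NF-kB. Its counts were 2124, 1794, 2097, 2120.1 and 1986 in the TLR3-MSC joints and 2462, 2507, 3054, 3005 and 2163 in the MSC joints. MSC joint 5 was only just above the highest TLR3-MSC joint. The log2 fold change was −0.37 (standard error 0.11). Plaur (chromosome 7, 24161909 to 24175394, plus strand) encodes the urokinase receptor, which gathers plasminogen activation at the surface of myeloid and other cells. Its counts were 2094, 2098, 2205, 2526 and 2389 in the TLR3-MSC joints and 3155, 2584, 3962, 3898 and 2635 in the MSC joints. MSC joints 2 and 5 lay just above TLR3-MSC joint 4, and the other MSC joints were well clear of it. On the log2 scale the difference was −0.50 (standard error 0.13).

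Mcl1 (chromosome 3, 95566099 to 95570488, plus strand), chosen after its values were seen, encodes a survival factor of the BCL2 family on which neutrophils and other myeloid cells depend. Its counts were 13399, 14205, 13722, 14471 and 15678 in the TLR3-MSC joints and 16584, 18119, 19638, 18671 and 16813 in the MSC joints. The groups did not overlap although the difference was small. This gave a log2 fold change of −0.33 (standard error 0.07), with an adjusted p of 0.633 in limma, 0.424 in edgeR and 0.00119 in DESeq2. Of 20 measured genes of the BCL2 family and death receptors, Mcl1 was the 1 gene called, against 3.88% of all genes. The median log2 fold change of the list was −0.01 against 0.03 for all genes.

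Csrnp1 (chromosome 9, 119800229 to 119813725, minus strand) encodes a nuclear protein induced by AXIN1. Its counts were 448, 450.4, 433, 503 and 533 in the TLR3-MSC joints and 586, 558, 805, 829 and 652 in the MSC joints. MSC joint 2 was the lowest of its group and still above TLR3-MSC joint 5, the highest of the other. Fitted by limma, the log2 fold change was −0.52 (standard error 0.14). Slc38a2 (chromosome 15, 96585273 to 96597612, minus strand) encodes the amino acid transporter SNAT2. Its counts were 5645, 6335, 6251, 5849 and 6393 in the TLR3-MSC joints and 6403, 7410.2, 9109, 7729 and 8324 in the MSC joints. MSC joint 1 lay within a narrow margin of TLR3-MSC joint 5, and the other MSC joints lay well above. The fitted difference was −0.35 (standard error 0.09) on the log2 scale.

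Lcat (chromosome 8, 106666183 to 106670015, minus strand) encodes lecithin-cholesterol acyltransferase, which esterifies cholesterol on lipoprotein particles. Its counts were 41.3, 43.7, 29.5, 46.6 and 40.7 in the TLR3-MSC joints and 65.7, 72.4, 93.5, 91.5 and 58.0 in the MSC joints. No joint of the groups overlapped, and TLR3-MSC joint 3 was the lowest of all. The groups differed by −0.89 (standard error 0.19) on the log2 scale, with an adjusted p of 0.0085 in DESeq2 and of 0.615 in limma. Chka (chromosome 19, 3901773 to 3944370, plus strand) encodes choline kinase, the first enzyme of phosphatidylcholine synthesis by the choline pathway, and its counts were 614, 574, 497, 575 and 575 in the TLR3-MSC joints and 761, 680.2, 876, 663 and 632 in the MSC joints. The groups came near each other at TLR3-MSC joint 1 and MSC joint 5 without overlap, and the log2 fold change was −0.34 (standard error 0.12).

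**Figure D2:**
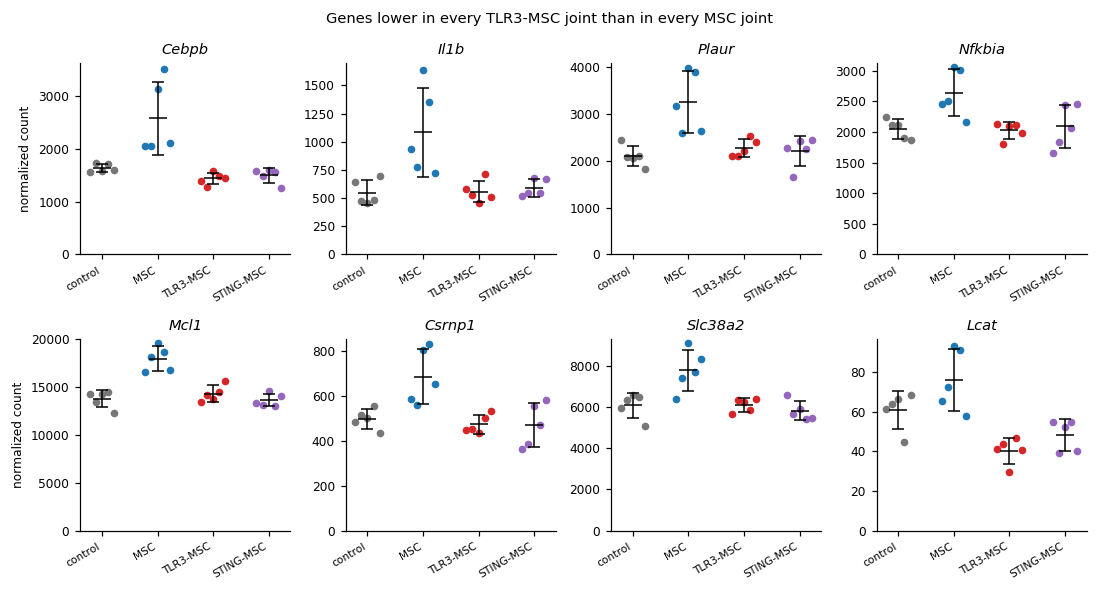
Normalized counts of 8 steady lower genes, 1 panel each with its own y axis from 0. Each point is a joint of the control (grey), MSC (blue), TLR3-MSC (red) or STING-MSC (purple) group, 5 joints a group, and the bars show the mean and SD. In every panel all red points lie below all blue points, and for Cebpb they lie between 1280.0 and 1586 against 2052 to 3507.

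The other steady lower genes were of mixed function and mostly smaller difference. Fcrl6, an Fc receptor-like gene of lymphocytes, was at 4.21, 7.28, 1.34, 6.21 and 6.78 in the TLR3-MSC joints and 20.8, 8.42, 19.9, 8.24 and 27.5 in the MSC joints. Among the 15 steady lower genes named by rule it had the largest fold change, at a log2 fold change of −1.53 (standard error 0.44), at counts so low that sampling of reads adds to its spread. Gimap4, a GTPase of lymphocytes, ranged from 383 to 722 after TLR3-MSC and from 762 to 989 after MSC, with a log2 fold change of −0.45 (standard error 0.16). Epha2, a receptor tyrosine kinase of the ephrin system, ranged from 462 to 582 and from 586 to 789, with a log2 fold change of −0.38 (standard error 0.12). Afap1l2, an adaptor in SRC kinase signalling, ranged from 189 to 279 and from 312 to 401, with a log2 fold change of −0.45 (standard error 0.12). In each of these genes the ranges stayed apart.

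Gnrh1, the gene of gonadotropin-releasing hormone, ranged from 27.1 to 45.6 after TLR3-MSC and from 46.8 to 83.2 after MSC, with a log2 fold change of −0.74 (standard error 0.24). Ovgp1, an oviduct glycoprotein of the chitinase family, ranged from 65.7 to 84.3 and from 87.6 to 167, with a log2 fold change of −0.55 (standard error 0.19). Tyw3, an enzyme of wybutosine synthesis in transfer RNA, ranged from 79.1 to 93.8 and from 106 to 131, with a log2 fold change of −0.41 (standard error 0.12). These 3 genes had low counts in every joint of both groups, and their ranges stayed apart. Of the remaining steady lower genes, Hnrnph3, Prpf39 and Wdr77 act in pre-messenger RNA splicing or in methylating splicing proteins, Polg2 is a subunit of the mitochondrial DNA polymerase, Ppt2 a lysosomal thioesterase, Gramd1a a sterol transporter and Zcchc7 a part of the nuclear RNA surveillance complex. They were named after their values were seen, and their log2 fold changes ran from −0.34 for Hnrnph3 to −0.19 for Wdr77. Another 3 steady lower genes, Gm6525, Gm35339 and Gm21992, have no descriptive name.

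The gene list of C/EBP and immediate-early transcription factors had 7 lower and 0 higher genes among 29 measured, against 1.99% lower among all genes. This list and those that follow were written with earlier results of these data known, so their counts and medians are descriptions and not support. The median log2 fold change of the list was −0.31, and 24 of the 29 genes had a negative value. Leaving out 1 joint moved the median between −0.37 without TLR3-MSC joint 5 and −0.21 without MSC joint 2, and after quantile normalization it was −0.34. The 20 neutrophil markers moved the same way, with a median of −0.24 and 19 of 20 negative, and their part in this list, which holds factors of myeloid cells such as Cebpe, was not tested. Beside Cebpb, 2 further C/EBP genes were called in every fit with 1 joint left out. Cebpd, which encodes C/EBPδ, was at 2222, 2094, 2384, 3004 and 2586 in the TLR3-MSC joints and 3132, 2935, 3255, 3306 and 2948 in the MSC joints, and only TLR3-MSC joint 4 reached into the MSC range. Its log2 fold change was −0.35 (standard error 0.13). Cebpg, a C/EBP family member that pairs with other factors of the family, had a log2 fold change of −0.29 (standard error 0.09), with 2 of the 5 TLR3-MSC joints below every MSC joint.

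The other 4 called genes of that list lost their call without at least 1 joint, in part with a difference of like size. Fosl2, Fos and Fosb among them were named after their values were seen. Zfp36, which encodes a protein that degrades cytokine messenger RNA, was at 1827, 1615, 1627, 1955 and 1961 in the TLR3-MSC joints and 2075, 2046, 2929, 2779 and 1958 in the MSC joints. TLR3-MSC joint 5 exceeded MSC joint 5 by a narrow margin, so the groups touched. Its fitted difference was −0.38 (standard error 0.14) on the log2 scale, and it was not called without MSC joint 3, where it was −0.29. Fosl2, an AP-1 subunit, ranged from 3546 to 4816 after TLR3-MSC and from 4032 to 7515 after MSC, with a log2 fold change of −0.48 (standard error 0.18) and no call without MSC joint 3, where the value was −0.36. Fos ranged from 254 to 969 and from 665 to 1704, with a log2 fold change of −0.87 (standard error 0.38), and it was not called without MSC joint 2, MSC joint 3, TLR3-MSC joint 1 or TLR3-MSC joint 4, with values from −0.72 to −0.59. Fosb ranged from 69.1 to 393 and from 182 to 2531, with MSC joint 2 far above the rest. Its log2 fold change was −1.32 (standard error 0.59), and without MSC joint 2 it was −0.71 and not called. Fosb was not called either without MSC joint 3, TLR3-MSC joint 1 or TLR3-MSC joint 4, with values from −1.14 to −0.97.

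Among 29 measured genes of NF-kB feedback and inflammatory cytokines, 3 were lower (Il1b, Nfkbia and Bcl3) and 0 were higher, against 1.99% lower and 1.89% higher among all genes. The list's median was −0.06, and it ran from −0.15 without MSC joint 5 to −0.03 without MSC joint 1. Bcl3, an IκB-like nuclear cofactor of NF-kB, was at 467, 521, 408, 462 and 708 in the TLR3-MSC joints and 646, 939.5, 813, 743 and 621 in the MSC joints. TLR3-MSC joint 5 lay inside the MSC range and the other TLR3-MSC joints lay below it. Its fitted difference was −0.56 (standard error 0.17) on the log2 scale. The list of IL-6, gp130 and STAT3 genes had 5 lower genes (Mcl1, Osm, Bcl3, Pim3 and Cish) and 1 higher gene (Fgl2) among 26, against the same 1.99% and 1.89%, with a median of 0.02 that became −0.01 after quantile normalization and −0.02 without MSC joint 4. Osm, the gp130 cytokine oncostatin M, was at 228, 158, 193, 253 and 193 in the TLR3-MSC joints and 285, 204, 542, 431 and 319 in the MSC joints. MSC joint 2 fell among the TLR3-MSC joints and MSC joint 3 was highest. Its log2 fold change was −0.73 (standard error 0.22). Pim3, a serine/threonine kinase induced by STAT factors, had a log2 fold change of −0.27 (standard error 0.10), with 4 of 5 TLR3-MSC joints below every MSC joint.

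Glucocorticoid-induced genes had 3 lower members (Per1, Ddit4 and Tsc22d3) and 0 higher members among 16, against 1.99% lower among all genes. Their median was −0.14, and it ran from −0.20 without TLR3-MSC joint 3 to −0.08 without TLR3-MSC joint 1. Ddit4, an inhibitor of the kinase mTORC1, was at 606, 645, 543, 674 and 1027 in the TLR3-MSC joints and 810.2, 1563, 1529, 1407 and 937 in the MSC joints. TLR3-MSC joint 5 stood apart from its group and inside the MSC range. The log2 fold change was −0.82 (standard error 0.22). Tsc22d3, which encodes the glucocorticoid-induced leucine zipper GILZ, was at 3217, 4437, 5433, 4128 and 4506 in the TLR3-MSC joints and 4567, 6080.0, 6706, 7082 and 7201 in the MSC joints. TLR3-MSC joint 3 lay inside the MSC range and the other 4 joints lay below it. On the log2 scale the difference was −0.54 (standard error 0.15). Among 20 heat shock and chaperone genes 2 were lower and 0 higher, against the same 1.99%, with a median of −0.15 that became −0.10 without TLR3-MSC joint 4. Dnaja1, a co-chaperone of HSP70, had a log2 fold change of −0.39 (standard error 0.13), with 4 of 5 TLR3-MSC joints below every MSC joint. Hspe1, the mitochondrial chaperonin cofactor, had a log2 fold change of −0.16 (standard error 0.08), a call that was kept in 3 of the 10 fits with 1 joint left out.

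Lists written after these values were seen describe the same genes by other roles. They were drawn up around genes already seen, so their counts support nothing, and 1.99% of all genes were lower and 1.89% higher. The list of targets of the transcription factor ATF4 in amino acid stress had 4 lower genes (Cebpb, Slc38a2, Ddit4 and Cebpg) and 0 higher genes among 22, with a median of −0.13 (−0.16 to −0.09 with 1 joint left out). The list of IL-1 family and inflammasome genes had 3 lower genes (Il1b, Il18r1 and Acod1) and 0 higher genes among 19, with a median of −0.12 that was −0.25 without MSC joint 2 and −0.07 without MSC joint 3. Acod1, the itaconate-producing enzyme of activated myeloid cells, was at 70.8, 44.5, 42.9, 64.2 and 41.8 in the TLR3-MSC joints and 103, 40.4, 256, 243 and 163 in the MSC joints. MSC joint 2 was the lowest of all 10 joints and the other MSC joints the highest, so the groups overlapped. Its fitted difference was −1.36 (standard error 0.52) on the log2 scale, and without MSC joint 3 it was −1.12 and not called. The plasminogen list had 2 lower genes (Plaur and Serpinf2) among 14 and a median of 0.05 that was 0.25 without MSC joint 2 and −0.06 without MSC joint 4. Serpinf2, which encodes α2-antiplasmin, was at 30.3, 25.1, 6.70, 18.6 and 4.52 in the TLR3-MSC joints and 29.5, 35.4, 74.6, 49.5 and 36.6 in the MSC joints, and TLR3-MSC joint 1 overlapped with the lowest MSC joint. Its log2 fold change was −1.57 (standard error 0.47), and it kept its call in all 10 fits.

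Promoter sequences were read for the lower genes Il1b, Nfkbia and Plaur and for the higher gene Ciart, because members of the C/EBP, AP-1, NF-kB and clock factor families bind known short motifs and genes of those families were among those that differed. The sequences are the 250 bases before each start in RefSeq, build GRCm38.p6, written 5′ to 3′ on the strand of the gene, with matches in capitals. The gene positions given elsewhere are those of the deposited table on GRCm39 and are not on the same coordinates.
Il1b (chr2:129371140-129371389, minus strand): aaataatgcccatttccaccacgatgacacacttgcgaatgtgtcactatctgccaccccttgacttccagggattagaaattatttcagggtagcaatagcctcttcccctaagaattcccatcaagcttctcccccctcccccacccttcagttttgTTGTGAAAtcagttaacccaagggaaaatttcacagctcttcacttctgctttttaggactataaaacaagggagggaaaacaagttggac
Nfkbia (chr12:55492648-55492897, minus strand): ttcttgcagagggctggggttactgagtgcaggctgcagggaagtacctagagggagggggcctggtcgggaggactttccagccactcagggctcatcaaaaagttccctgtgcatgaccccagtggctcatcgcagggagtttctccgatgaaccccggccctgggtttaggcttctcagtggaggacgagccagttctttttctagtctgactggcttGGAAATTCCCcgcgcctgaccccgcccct
Plaur (chr7:24462233-24462482, plus strand): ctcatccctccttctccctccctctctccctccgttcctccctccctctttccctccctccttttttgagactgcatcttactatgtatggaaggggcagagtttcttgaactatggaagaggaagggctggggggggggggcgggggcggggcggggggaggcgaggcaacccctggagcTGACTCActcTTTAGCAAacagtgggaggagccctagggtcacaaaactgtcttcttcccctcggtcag
Ciart (chr3:95882229-95882478, minus strand): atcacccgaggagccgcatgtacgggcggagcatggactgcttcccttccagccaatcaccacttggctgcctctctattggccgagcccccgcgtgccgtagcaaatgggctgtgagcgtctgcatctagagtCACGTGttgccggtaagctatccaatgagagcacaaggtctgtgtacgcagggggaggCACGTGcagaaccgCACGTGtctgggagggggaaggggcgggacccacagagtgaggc

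The capitals mark, on either strand, a C/EBP site written TTNNGNAA, an AP-1 site written TGANTCA and a cyclic AMP response element written TGACGTCA. They also mark the κB consensus written GGGRNNYYCC and an E-box written CACGTG. N is any base, R is A or G, and Y is C or T. In Il1b a C/EBP match began 91 bases before the start. In Nfkbia a κB match began 29 bases before the start. Plaur held an AP-1 match 69 bases and a C/EBP match 59 bases before the start. Ciart held 3 E-boxes, which began 116, 58 and 44 bases before the start. The matches shown do not overlap one another.

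Over the window that also covers 50 bases after the start, a promoter was available for 11627 of the 14793 genes, for 23 of the 26 steady lower genes and for 22 of the 27 steady higher genes. The κB consensus was found in 3 of the 23 lower genes (13.04%: Nfkbia, Polg2 and Ppt2), in 4 of the 22 higher genes (18.18%) and in 12.48% of all promoters. Another form, ending in TTTCC and with any base after GGG, was searched first. It was in 4 of the 23 lower genes (17.39%: Mcl1, Nfkbia, Polg2 and Ppt2), in 0 of the 22 higher genes and in 2.038% of all promoters. The place of this motif thus depended on how it was written. The C/EBP letters were in 9 of 23 (39.13%) lower and 7 of 22 (31.82%) higher genes, against 36.59% of all. The AP-1 letters were in 3 of 23 (13.04%) lower and 1 of 22 (4.545%) higher genes, against 6.803% of all. The cyclic AMP element was in 1 of 23 lower genes, Epha2, and in 3.217% of all, and the E-box was in 2 of 23 lower and 2 of 22 higher genes and in 11.11% of all. These are descriptions of letters, the shares were not tested, and a match is not a site of binding.

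The steady higher genes were of mixed function. Sik2 (chromosome 9, 50804101 to 50920374, minus strand) encodes salt-inducible kinase 2, which restrains the transcriptional coactivators of CREB. Its counts were 863, 840.2, 942, 928 and 761 in the TLR3-MSC joints and 715, 704, 655, 527 and 603 in the MSC joints. Every TLR3-MSC joint was above every MSC joint, with TLR3-MSC joint 5 the nearest to MSC joint 1. The mean was 867 ± 73.2 against 641 ± 77.4 (SD, n = 5 each), with a log2 fold change of 0.44 (standard error 0.09) and an adjusted p of 0.0085 in DESeq2 and 0.615 in limma. Magi3 (chromosome 3, 103920575 to 104127691, minus strand) encodes a scaffold protein of cell junctions. Its counts were 464, 443, 402, 433 and 476 in the TLR3-MSC joints and 355, 377, 350.2, 317 and 272 in the MSC joints. The ranges were apart by a small gap, and the log2 fold change was 0.41 (standard error 0.11).

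Usp9x (chromosome X, 12937737 to 13039568, plus strand) encodes a deubiquitinating enzyme. Its counts were 4156, 4341, 5175, 3998 and 4011 in the TLR3-MSC joints and 3302, 3662, 3725, 2957 and 3635 in the MSC joints. TLR3-MSC joint 3 was the highest and MSC joint 4 the lowest, and the groups did not overlap. This gave a log2 fold change of 0.33 (standard error 0.10). Usp44, another deubiquitinating enzyme, which acts in the mitotic checkpoint, ranged from 27.1 to 29.5 after TLR3-MSC and from 12.2 to 26.9 after MSC, so that MSC joint 3 came close to the lowest TLR3-MSC joint. Fitted by limma, the log2 fold change was 0.68 (standard error 0.26). Mkrn3, a ubiquitin ligase from an imprinted locus expressed from the paternal allele, was at 25.3, 18.6, 28.2, 15.5 and 26.0 in the TLR3-MSC joints and 11.4, 13.5, 5.97, 11.5 and 4.07 in the MSC joints. All 5 TLR3-MSC joints were above the MSC joints, at counts of few reads. The fitted difference was 1.28 (standard error 0.31) on the log2 scale, and it stayed between 1.05 and 1.43 with any 1 joint left out. Fbxl21, an F-box protein that acts on the clock's CRY proteins, was at 18.5, 19.4, 24.1, 24.9 and 23.7 in the TLR3-MSC joints and 12.7, 14.3, 13.9, 10.7 and 15.3 in the MSC joints, with a log2 fold change of 0.68 (standard error 0.25).

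Zfp11, a zinc finger gene, was at 117, 129, 101, 102 and 138 in the TLR3-MSC joints and 57.6, 88.4, 69.6, 65.9 and 88.6 in the MSC joints. TLR3-MSC joints 3 and 4 were the lowest of their group and still above MSC joints 2 and 5. The groups differed by 0.67 (standard error 0.15) on the log2 scale, with an adjusted p of 0.0303 in DESeq2 and 0.686 in limma. Zfp719, another zinc finger gene, ranged from 262 to 324 after TLR3-MSC and from 170.0 to 259 after MSC, with a log2 fold change of 0.37 (standard error 0.13). Rab2b, a small GTPase of membrane traffic at the Golgi, was at 59.0, 52.6, 42.9, 45.6 and 54.3 in the TLR3-MSC joints and 27.5, 33.7, 24.9, 36.3 and 27.5 in the MSC joints. The ranges were separate, and the log2 fold change was 0.75 (standard error 0.21). Wdr89, a WD-repeat gene, ranged from 64.3 to 88.5 and from 37.8 to 61.8, with a log2 fold change of 0.58 (standard error 0.17). Ppp1r26, a regulatory subunit of protein phosphatase 1, ranged from 80.8 to 131 and from 56.0 to 74.2, with a log2 fold change of 0.55 (standard error 0.17). Pde8b, a cyclic AMP phosphodiesterase, ranged from 64.3 to 98.6 and from 51.9 to 60.1, with a log2 fold change of 0.47 (standard error 0.16).

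Pkd1l2, a polycystin family gene, was at 13.5, 17.8, 18.8, 13.5 and 15.8 in the TLR3-MSC joints and 12.7, 6.73, 7.96, 11.5 and 0 in the MSC joints. It was listed at 0 in MSC joint 5, and whether the zeros of that joint are measured counts is not given in the sources used here. The log2 fold change was 1.36 (standard error 0.54) with that joint and 0.68 without it, still called. It was not called with quantile normalization, where it was 0.78, or in a fit of these 10 joints alone. Among the 30 steady genes named by rule it was the only one that lost its call under an alternative in which it was tested.

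Nsun3 (chromosome 16, 62552807 to 62607182, minus strand), a methyltransferase that modifies the anticodon of mitochondrial methionine transfer RNA, was at 618, 549, 606, 572 and 485 in the TLR3-MSC joints and 479, 467, 394, 471 and 391 in the MSC joints. TLR3-MSC joint 5 lay just above MSC joint 1 and the others were further apart. On the log2 scale the difference was 0.36 (standard error 0.09). Further mitochondrial genes among the steady higher genes were named after their values were seen. Mcat and Oxsm are consecutive enzymes of fatty acid synthesis in mitochondria. Mcat was at 721, 732, 857, 762 and 631 in the TLR3-MSC joints and 629, 574, 581, 625 and 547 in the MSC joints, with a log2 fold change of 0.32 (standard error 0.08). Oxsm was at 672, 657, 668, 640.1 and 633 in the TLR3-MSC joints and 555, 599, 507, 523 and 498 in the MSC joints, with a log2 fold change of 0.29 (standard error 0.08). In both genes the ranges stayed apart, with TLR3-MSC joint 5 the lowest of its group.

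Polrmt, the RNA polymerase of mitochondria, ranged from 999 to 1221 after TLR3-MSC and from 918 to 990.4 after MSC, with a log2 fold change of 0.21 (standard error 0.08). Mrpl10, a protein of the mitochondrial ribosome, ranged from 847 to 957 and from 746 to 826, with a log2 fold change of 0.18 (standard error 0.06). The lists drawn up around these genes after they were seen did not move as a whole. Of 11 genes of mitochondrial fatty acid synthesis and lipoylation 3 were higher (Mcat, Oxsm and Lipt2), 0 were lower and the median was 0.04 (−0.01 without TLR3-MSC joint 3 and 0.10 without MSC joint 5), against 1.89% higher among all genes. Of 21 genes of mitochondrial DNA and RNA synthesis 2 were higher (Nsun3 and Polrmt), 2 were lower (Polg2 and Ssbp1) and the median was −0.01 (−0.03 to 0.05 with 1 joint left out), against 1.99% lower.

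The last of the steady higher genes, also named after their values were seen, had log2 fold changes between 0.14 and 0.31. They were Usp34, a deubiquitinating enzyme of Wnt signalling, Trp53bp1, a DNA repair protein, Tab1, an activator of the kinase TAK1, Nr2c2, an orphan nuclear receptor, Maml3, a coactivator of Notch, Grwd1, a ribosome assembly protein, and Pacs2, a sorting protein of contacts between endoplasmic reticulum and mitochondria. Usp34 was at 3500.3, 3535, 3535, 3517 and 3723 in the TLR3-MSC joints and 2851, 3207, 3018, 2584 and 3119 in the MSC joints, with a log2 fold change of 0.27 (standard error 0.07). Tab1 was at 1397, 1201, 1119, 1191 and 1162 in the TLR3-MSC joints and 1041, 938, 950.2, 1030.3 and 942 in the MSC joints, with a log2 fold change of 0.31 (standard error 0.09). Trp53bp1 was at 1564, 1379, 1276, 1239 and 1279 in the TLR3-MSC joints and 1165, 1232, 1151, 974 and 925 in the MSC joints, with a log2 fold change of 0.31 (standard error 0.09). The smallest difference was that of Pacs2, with a log2 fold change of 0.14 (standard error 0.06). E430018J23Rik was the only steady higher gene with no descriptive name.

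The clock genes differed in both directions. Among 19 measured genes of the circadian clock 4 were higher (Ciart, Dbp, Hlf and Per2), against 1.89% of all genes, and 2 were lower (Per1 and Nfil3), against 1.99%. Their median was 0.17, and it ran from 0.11 without TLR3-MSC joint 3 to 0.32 without MSC joint 5. Ciart (chromosome 3, 95785815 to 95789564, minus strand), a repressor of the clock activators CLOCK and BMAL1, was at 68.3, 67.1, 85.8, 76.6 and 66.7 in the TLR3-MSC joints and 41.6, 41.3, 53.7, 44.5 and 41.7 in the MSC joints. All TLR3-MSC joints were above all MSC joints. This gave a log2 fold change of 0.70 (standard error 0.23). Dbp, an activator of genes with D-box elements, was at 1392, 1392, 1385, 1061 and 1266 in the TLR3-MSC joints and 915, 1032, 769, 474 and 914 in the MSC joints. The groups did not overlap, with MSC joint 4 the lowest. Fitted by limma, the log2 fold change was 0.70 (standard error 0.26), and without MSC joint 4 it was 0.52 and not called.

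Per1, a clock repressor that glucocorticoids also induce, was at 1302, 1333, 1276, 1364 and 1594 in the TLR3-MSC joints and 1540.1, 2255, 3739, 2545 and 1892 in the MSC joints. MSC joint 1 lay below TLR3-MSC joint 5, and MSC joint 3 was the highest. The fitted difference was −0.74 (standard error 0.20) on the log2 scale, called in all 10 fits. Nfil3, the repressor that competes with DBP, was at 486, 691, 697, 628 and 727 in the TLR3-MSC joints and 649, 832, 856, 1093 and 931 in the MSC joints. The ranges overlapped, and the log2 fold change was −0.43 (standard error 0.17), not called without MSC joint 4 (−0.34) or without TLR3-MSC joint 1 (−0.33). The clock genes Hlf, Per2, Arntl and Nr1d1 were named after their values were seen. Hlf, a relative of Dbp, had a log2 fold change of 0.44 (standard error 0.18), and was not called without MSC joint 3 (0.38) or without TLR3-MSC joint 3 (0.34). Per2 had a log2 fold change of 0.28 (standard error 0.13) and kept its call in 4 of the 10 fits. Of clock genes that were not called, Arntl, which encodes BMAL1, ranged from 564 to 894 after TLR3-MSC and from 782 to 909.9 after MSC (log2 fold change −0.23), and Nr1d1, which encodes REV-ERBα, ranged from 2161 to 3609 and from 1698 to 3270.4 (log2 fold change 0.31). The time of day at which joints were taken is not given in the sources used here, and its part in these values was not tested.

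**Figure D3:**
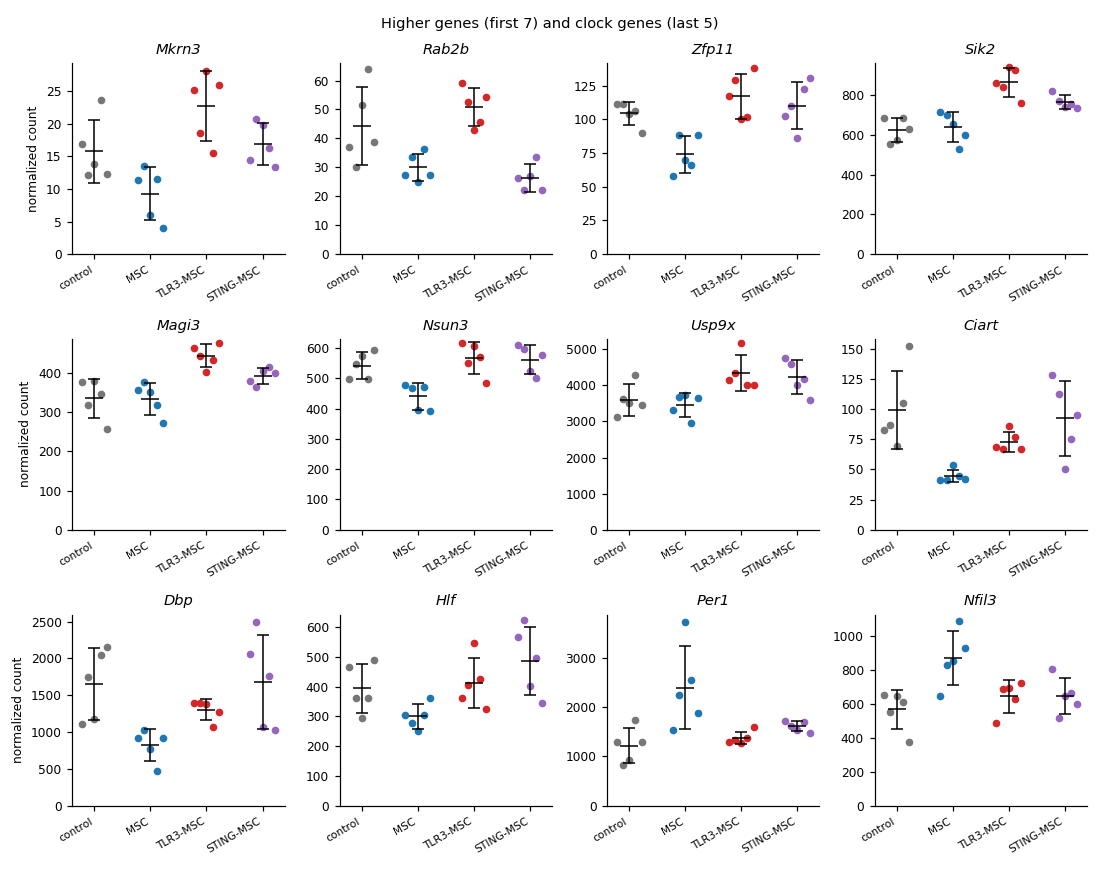
Normalized counts of 7 steady higher genes (Mkrn3 to Usp9x) and 5 clock genes (Ciart to Nfil3), 1 panel each with its own y axis from 0. Each point is a joint of the control (grey), MSC (blue), TLR3-MSC (red) or STING-MSC (purple) group, 5 joints a group, with the mean and SD as bars. Red points lie above all blue points in the panels from Mkrn3 to Dbp. For Per1 they lie mostly below the blue points, and for Nfil3 most lie inside the blue range.

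The pathway used to activate the cells showed little difference in the joint. Tlr3 itself was at 188, 211, 153, 135 and 211 in the TLR3-MSC joints and 173, 263, 170.1, 114 and 215 in the MSC joints, and the groups lay across the same range (log2 fold change −0.03, standard error 0.24, limma FDR = 0.994). Ticam1 was at 475, 567, 457, 546 and 539 in the TLR3-MSC joints and 552, 594, 551, 483 and 400.0 in the MSC joints, again across the same range (log2 fold change 0.01, standard error 0.12, limma FDR = 0.996). The sign of both small values changed with single joints left out. Of 24 measured genes of TLR3 and double-stranded RNA sensing 0 were called in either direction, and the median was 0.01, or −0.02 after quantile normalization.

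Among 38 type I interferon-stimulated genes 2 were higher (Ifit3b and Ifit3), against 1.89% of all genes, and 0 were lower. The list's median was 0.11, with 30 of the 38 genes positive, and it was 0.00 without MSC joint 5, 0.04 without MSC joint 2 and 0.19 without MSC joint 1. Ifit3b was at 158, 163, 235, 124 and 168 in the TLR3-MSC joints and 126, 66.5, 90.5, 117 and 146 in the MSC joints. TLR3-MSC joint 4 lay within the MSC range and the other joints above it. The groups differed by 0.65 (standard error 0.23) on the log2 scale, kept with any 1 joint left out. Ifit3, a near copy of Ifit3b with which it may share reads, was at 452, 299, 406, 374 and 350.4 in the TLR3-MSC joints and 453, 229.8, 259, 270.3 and 158 in the MSC joints, and MSC joint 1 was the highest of all. The log2 fold change was 0.53 (standard error 0.25), and it kept its call in 2 of the 10 fits, with 0.35 without MSC joint 5. Ifit1, named after its values were seen, ranged from 256 to 547 after TLR3-MSC and from 179 to 323 after MSC and was not called.

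**Figure D4:**
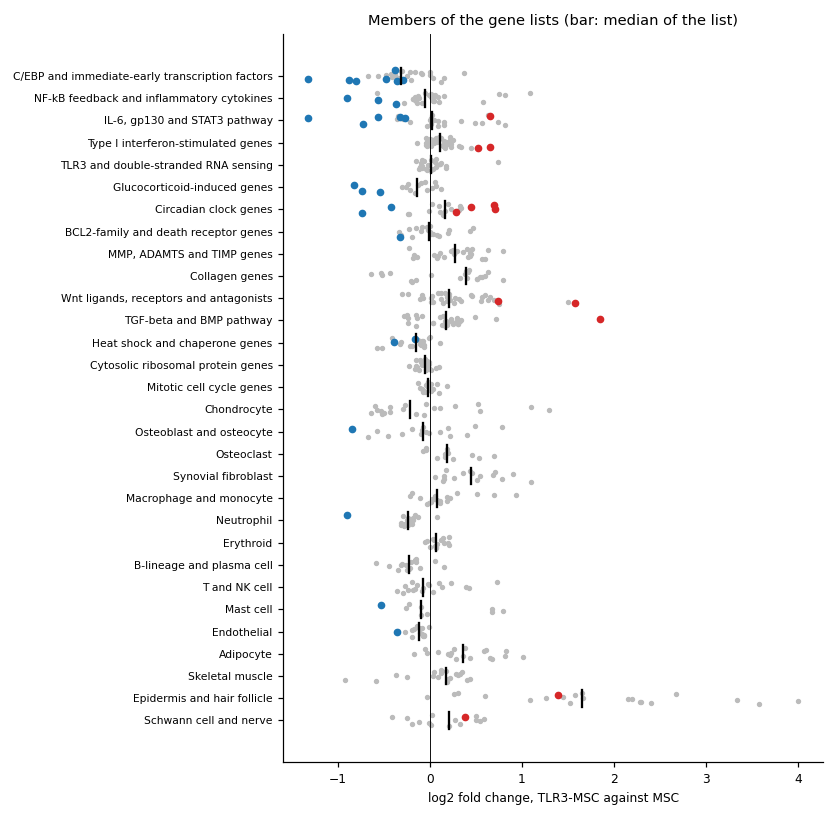
Each point is a measured gene of a list, with the log2 fold change of TLR3-MSC against MSC joints on the x axis, and the bar is the median of the list. Red and blue points are genes called higher and lower at an unadjusted limma p of at most 0.05, grey points were not called. Blue points gather in the list of C/EBP and immediate-early factors, where the median is −0.31, and the clock list holds red and blue points together. The lists were written with earlier results of these data known.

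The matrix genes of the joint differed by amounts within the spread between joints. Of 25 MMP, ADAMTS and TIMP genes 0 were called, with a median of 0.28 that was 0.07 without MSC joint 4 and 0.54 without MSC joint 2. Of 21 collagen genes 0 were called, and their median of 0.40 became 0.00 without MSC joint 4 and 0.86 without MSC joint 2. Of 35 Wnt ligands, receptors and antagonists 2 were higher and 0 lower, against 1.89% higher among all genes, with a median of 0.21 that was 0.12 without MSC joint 4 and 0.36 without MSC joint 2. Wnt10b was at 154, 164, 363, 206 and 272 in the TLR3-MSC joints and 129, 274, 157, 65.9 and 108 in the MSC joints, with MSC joints 2 and 3 inside the TLR3-MSC range, and had a log2 fold change of 0.74 (standard error 0.30). Without MSC joint 4, MSC joint 5, TLR3-MSC joint 3 or TLR3-MSC joint 5 it was not called, with values from 0.49 to 0.66. Wnt2b was at 41.3, 38.0, 64.3, 48.7 and 38.4 in the TLR3-MSC joints and 25.5, 45.5, 38.8, 17.3 and 0 in the MSC joints. It was listed at 0 in MSC joint 5, and its log2 fold change of 1.58 was 0.59 and not called without that joint, with the call kept in 4 of the 10 fits.

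Of 30 TGF-β and BMP genes 1 was called, against 3.88% of all genes, with a median of 0.17 that was 0.07 without MSC joint 4 and 0.33 without MSC joint 2. That gene, Gdf5, a growth factor of joint development, was at 4.21, 21.0, 9.38, 15.5 and 62.2 in the TLR3-MSC joints and 5.36, 59.8, 0.99, 1.65 and 0 in the MSC joints. The groups overlapped throughout, since MSC joint 2 was almost as high as the highest TLR3-MSC joint and MSC joint 5 was at 0. On the log2 scale the difference was 1.85 (standard error 0.86) and 1.30, not called, without MSC joint 5, and the call was kept in 4 of the 10 fits. Of 25 cytosolic ribosomal protein genes and 20 mitotic genes 0 were called, with medians of −0.06 and −0.02.

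Tissue make-up varied between joints of the same group. The 16 synovial fibroblast markers were all higher on average after TLR3-MSC, where 8497 of all 14793 genes were higher on average. The median of the markers was 0.45, yet 0 were called, and it was 0.10 without MSC joint 4 and 0.66 without MSC joint 2. Their summed count ran from 306392 to 610294 in TLR3-MSC joints and from 60104 to 667511 in MSC joints, MSC joint 4 being the lowest. Prg4, which encodes lubricin, the lubricant of the joint surface, was at 200432, 359058, 285742, 259197 and 397958 in the TLR3-MSC joints and 127402, 431063, 176785, 15886 and 302881 in the MSC joints, and the groups overlapped (log2 fold change 1.10, not called). It was 0.33 without MSC joint 4 and 1.52, and then called, without MSC joint 2. The 20 chondrocyte markers had a summed count of 312333 to 643406 after TLR3-MSC and of 51235 to 729009 after MSC, again lowest in MSC joint 4, with 0 called. Bglap, the osteocalcin gene of osteoblasts, ranged from 1878 to 4505 after TLR3-MSC and from 3430.2 to 8167 after MSC. It was not called at a log2 fold change of −0.68 (standard error 0.33), but it was called lower in DESeq2, after quantile normalization, in the 10 joints alone, with the replicate block and in 4 of the 10 fits with 1 joint left out, at −0.81 to −0.68. The defining genes of synovium, cartilage and bone were thus present in all 10 joints.

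Of all genes 3.88% were called, 1.99% lower and 1.89% higher, and the counts of called markers that follow stand beside those shares. The 15 endothelial markers were all lower on average and 1 was called, Vwf. Its log2 fold change was −0.36 (standard error 0.14), and it was not called without TLR3-MSC joint 3, where it was −0.23. The median of the endothelial list was −0.12, and 0.02 without MSC joint 2. Of 17 osteoblast and osteocyte markers 1 was called, Ifitm5, a membrane protein of osteoblasts, at 19.4, 20.2, 12.1, 16.6 and 15.8 in the TLR3-MSC joints and 26.8, 26.9, 38.8, 34.6 and 27.5 in the MSC joints. The groups did not overlap. This gave a log2 fold change of −0.85 (standard error 0.35), and it was not called without MSC joint 3, MSC joint 4 or TLR3-MSC joint 3, with values from −0.80 to −0.74. Of 9 mast cell markers 1 was called, Hdc, the histamine-forming enzyme, at a log2 fold change of −0.53 (standard error 0.24), and it kept its call in 3 of the 10 fits. The macrophage (19), osteoclast (14), erythroid (15), B-lineage (16), T and NK cell (19), adipocyte (19) and skeletal muscle (19) lists had 0 called genes each, with medians between −0.22 for B-lineage markers (−0.43 without MSC joint 2) and 0.36 for adipocyte markers (0.60 without MSC joint 5). The Schwann cell list had 1 higher gene of 15, Erbb3, which kept its call in 4 of the 10 fits.

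The 21 epidermis and hair follicle markers had a median of 1.66. Their summed count was 44316 in TLR3-MSC joint 4 and from 1112 to 4062 in the other TLR3-MSC joints, against 870 to 3212 in MSC joints. Krt1 was at 3.37, 5.66, 106, 3043 and 3.39 in the TLR3-MSC joints and 92.5, 0.84, 0, 0 and 0 in the MSC joints, and Lor was at 10.1, 29.1, 716, 4041 and 23.7 in the TLR3-MSC joints and 200.4, 29.5, 9.95, 2.47 and 0 in the MSC joints. Skin markers thus stood highest in a single joint, and without TLR3-MSC joint 4 the median of the list was 0.49. Of the list 1 gene was called, Sbsn, against 3.88% of all genes. Its call was kept in 4 of the 10 fits and lost in edgeR and DESeq2. At unadjusted p, Lor was called in edgeR (4.23) and DESeq2 (4.31) and Krt1 in edgeR (4.94), and both were called without MSC joint 1.

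**Figure D5:**
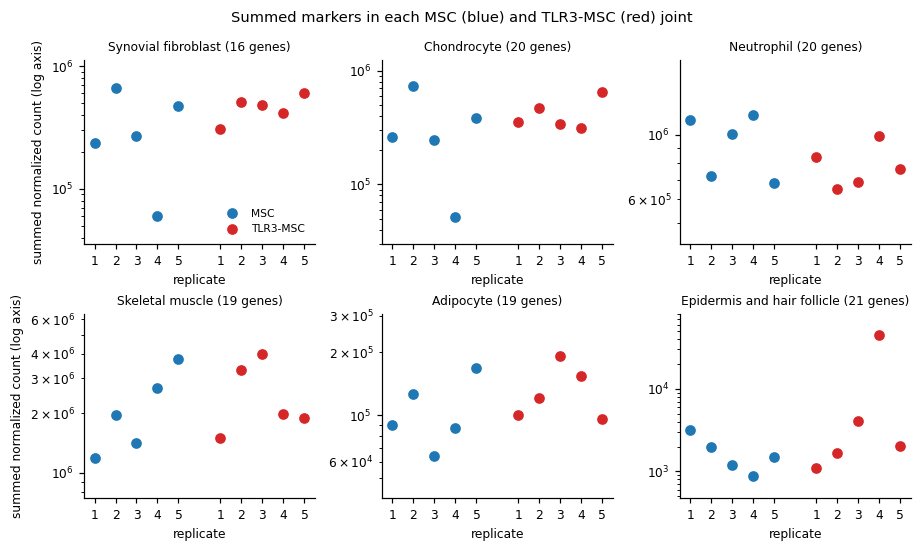
Summed normalized counts of 6 marker lists in each MSC (blue) and TLR3-MSC (red) joint, by replicate number, on log axes that differ between panels. MSC joint 4 is the lowest joint for synovial fibroblast and chondrocyte markers, and TLR3-MSC joint 4 the highest for epidermis and hair follicle markers, at 44316 against 870 to 4062 in the others.

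With a 2-fold change asked for as well as an unadjusted p of at most 0.05, 48 genes were higher (0.324% of those tested) and 11 were lower (0.0744%). Most of the 48 were at 0 in MSC joint 5. Its genes listed at 0 numbered 296, among them 239 that were above 0 in the other 19 joints, while 37 of its genes had from 1 to 3 reads, and the other joints of these groups listed from 0 to 42 genes at 0. So few low values beside so many zeros leave it uncertain whether the zeros of that joint are measured counts, which bears on every gene listed at 0 there. MSC joint 5 stood at 0 for 34 of these 48 genes. Leaving it out kept 12 of the 48, and leaving out another joint kept 21 to 44. The number past the limit without it was 51 higher and 19 lower, so most of those higher genes were others. Just 3 of the 48 did not overlap between groups (Mkrn3, Nexmif and Pkd1l2) and 2 were steady. Nexmif, a neuronal gene of the X chromosome named after its values were seen, was at 77.5, 116, 113, 96.3 and 74.6 in the TLR3-MSC joints and 60.3, 61.5, 58.7, 5.77 and 60.1 in the MSC joints. MSC joint 4 was far below all others. Fitted by limma, the log2 fold change was 1.27 (standard error 0.53), and without MSC joint 4 it was 0.63 and not called. Nexmif was not called either without TLR3-MSC joint 2 (1.19) or joint 3 (1.20), in edgeR (0.94) or in the 10 joints alone.

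The 11 lower genes past that limit were Acod1, Cish, Csta3, Fcrl5, Fcrl6, Fosb, Gm6525, Gm42878, Grm6, Rgs8 and Serpinf2. MSC joint 5 listed 0 of them at 0, and 7 were kept without it. Of the 11, 2 did not overlap between groups and were steady, Fcrl6 and Gm6525. The balance of the directions differed between scalings. After quantile normalization 14 genes were higher and 38 lower past the 2-fold limit, and 156 were called higher and 412 lower without it. TMM scaling gave 49 higher and 11 lower, edgeR 53 and 23, and DESeq2 34 and 25. Of the steady genes, 26 of the 27 higher and 26 of the 26 lower kept their direction and an unadjusted p of at most 0.05 under quantile normalization, Pkd1l2 being the exception.

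Control and STING-MSC joints were set beside the groups for the same genes. These comparisons share joints with the one above, and the genes were chosen by the MSC and TLR3-MSC values, so nothing is read from how often they coincide. Of the 26 steady lower genes 15 were higher in MSC than in control joints (5.64% of all genes) and 5 were lower in TLR3-MSC than in control joints (0.906%). The median log2 fold change against control was −0.14 for TLR3-MSC, 0.32 for MSC and 0.01 for STING-MSC joints. Against MSC joints, 15 were lower in STING-MSC joints (2.17%). Of the 27 steady higher genes 16 were lower in MSC than in control joints (2.91%), 5 were higher in TLR3-MSC than in control joints (2.68%) and 19 were higher in STING-MSC than in MSC joints (2.77%), with medians against control of 0.11 for TLR3-MSC, −0.28 for MSC and 0.05 for STING-MSC joints.

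Cebpb ranged from 1552 to 1720.4 in control joints and from 1264 to 1591 in STING-MSC joints, and all control joints were below all MSC joints. Against control its log2 fold change was −0.19, not called, for TLR3-MSC and 0.62, called, for MSC. Il1b ranged from 456 to 693 in control joints, with fold changes of 0.03, not called, for TLR3-MSC and 0.93, called, for MSC. Mcl1 and Plaur gave a like order, Mcl1 at 0.05 and 0.38, and Plaur at 0.11 and 0.61. For these 4 genes the MSC joints were called higher than the control joints, and the TLR3-MSC joints were not called different from them. STING-MSC joints were also called lower than MSC joints for Cebpb (−0.75), Il1b (−0.81) and Plaur (−0.54).

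Lcat was different in that TLR3-MSC joints were lower than control joints, which ranged from 44.8 to 68.7, at −0.59, while MSC joints were at 0.31 and not called. Cebpd was higher than control in both groups, at 0.31 for TLR3-MSC and 0.66 for MSC. Among the higher genes, Sik2 and Magi3 were higher in TLR3-MSC than in control joints, at 0.47 and 0.42, and MSC joints were at 0.03 and 0.00 and not called. STING-MSC joints were also called higher than control joints for Sik2 (0.30) and Magi3 (0.24). Ciart and Dbp were lower in MSC than in control joints, Ciart at −1.09, and TLR3-MSC joints were at −0.39 for Ciart and −0.30 for Dbp and not called.

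The recovered reads per joint summed to 28385967 to 45339873 in the TLR3-MSC group (median 33141873) and to 33771968 to 48847432 in the MSC group (median 42283681), a difference that was not larger than the spread (exact permutation test, two-sided, p = 0.23, where the smallest p possible is 0.00794). Of the 30 steady genes named by rule, 22 overlap another annotated gene and 8 of these a protein-coding one, Cebpb (Peds1), Sik2 (Ppp2r1b), Magi3 (Phtf1), Rab2b (Tox4), Fbxl21 (Lect2), Wdr89 (Rplp2-ps1), Ppp1r26 (Pierce1) and Tyw3 (Cryz), and whether counting used strand is not given in the sources used here, so reads of the partners may be included. The labels call the joints biological replicates of separate mice, and the limma p-values rest on the spread between joints within all 4 groups.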

How the data were processed

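Bulk RNA sequencing covered 20 mouse knee joints, and the labels give 4 groups of 5 biological replicates. The submitters' processing notes name STAR 2.7.3a, HTSeq and DESeq2 and build GRCm39, and polyA RNA was sequenced from TruSeq libraries. The authors deposited a normalized signal, counts per gene divided by a median-ratio size factor per joint, for 14793 genes. The values were whole multiples of 1 read in at least 99.8% of cases (within 0.1 read), and in 100% under a value of 1000, so reads were recovered. This depth limits mainly genes with few reads. Strand use and any filter on low counts by the authors are not given in the sources used here.

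limma 3.58.1 (R 4.3.3, trend) was fitted to log2(value + 1) over all 20 joints and 4 groups. It replaces the count test that the paper names because the deposited values are normalized. The threshold was an unadjusted p of at most 0.05, with a 2-fold change where stated. Genes named by rule were the 15 steady genes with the largest fold change per direction, up to 4 called genes of smallest p per list, and Cebpb, Tlr3 and Ticam1. Others, among them Fosl2, Fos, Fosb, Hlf, Per2, Arntl and Nr1d1, were named after their values were seen. The 31 gene lists, of which the 13 mitochondrially encoded genes were not analysed here, and the members were chosen with earlier results of these data known, and 5 more lists after seeing the values. The fits were repeated with a pseudocount of 0.5 or 5, genes of mean 20 or more, no genes listed at 0, the 10 joints alone, quantile and TMM scaling, edgeR 4.0.16 and DESeq2 1.42.0 on recovered reads, a replicate block, and each joint left out. The fits were tested on simulated data. No 2 joints of a group held like counts, since the chi-square per gene was at least 28.1.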

Additional observations from a re-analysis of the deposited data

Results flagged for a closer look

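Values were examined for single joints that stood apart from the other 4 of their group, by the gap to the nearest joint as a share of the group's range. Chance alone gives such a joint in about 1 in 20 groups, and 19 were found among 218 groups of values. MSC joint 5 listed 296 genes at 0, where the next joint of its group listed 42. TLR3-MSC joint 4 had a summed count of 44316 for epidermis and hair follicle markers, with Krt1 at 3043 and Lor at 4041, each the highest of its group. MSC joint 1 was the highest MSC joint for Krt1 at 92.5, for Lor at 200.4 and for Gimap4 at 989.

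Other joints stood highest in their group for single genes. These were MSC joint 2 for Fosb at 2531 and Gdf5 at 59.8, MSC joint 3 for Ciart at 53.7 and Prpf39 at 1734, and MSC joint 5 for Polg2 at 322. TLR3-MSC joint 5 stood highest for Per1 at 1594, Ddit4 at 1027, Usp34 at 3723 and Fosl2 at 4816. The lowest joints that stood apart were TLR3-MSC joint 3 for Afap1l2 at 189, MSC joint 4 for Nexmif at 5.77 and MSC joint 4 for Per2 at 380.0. No explanation of these joints was tested.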

How the results depend on the processing

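The 59 genes past the 2-fold threshold, 48 higher and 11 lower, became 27 (20 and 7) with a pseudocount of 5, 22 (18 and 4) with a minimum mean of 20, 25 (14 higher) without genes listed at 0 and 23 (13 higher) in a fit of the 10 joints alone. Quantile normalization gave 14 higher and 38 lower genes, edgeR 53 and 23, DESeq2 34 and 25, and TMM scaling 49 and 11. With single joints left out the total ran from 42 without TLR3-MSC joint 3 to 236 without MSC joint 2, the higher genes from 22 to 217 and the lower genes from 13 to 20. The 574 genes at an unadjusted p of at most 0.05 became 343 in the 10 joints alone and ran from 363 without MSC joint 4 to 1477 without MSC joint 2. The 0 genes at an FDR of at most 0.05 became 1 in edgeR and 7 in DESeq2 and 0 to 1 with single joints left out. In the 10 joints alone 0 genes reached that FDR, and the lowest FDR was 0.999. Genes whose joints do not overlap numbered 86 and ran from 107 to 348 with 1 joint left out, where fewer joints make separation easier. The cause of the other moves was not tested. With single joints left out Tlr3 ran from −0.19 to 0.11 and Ticam1 from −0.078 to 0.065. Tlr3 changed sign without MSC joint 2 (0.11), MSC joint 5 (0.04), TLR3-MSC joint 3 (0.03) or TLR3-MSC joint 4 (0.07). Ticam1 changed sign after quantile normalization (−0.0255), in edgeR (−0.00013) and without MSC joint 4 (−0.01), MSC joint 5 (−0.078), TLR3-MSC joint 2 (−0.02), joint 4 (−0.01) or joint 5 (−0.01). Of the 30 steady genes named by rule, 29 of 30 to 30 of 30 kept their call under each scaling, pseudocount and tool, 26 of 26 with the minimum mean and 29 of 29 without genes listed at 0. Medians of gene lists under these settings were chosen after seeing the data.

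Same-numbered joints are different mice. Their deviations from the group means correlated at 0.0927 on average (−0.421 to 0.32 over 5 pairs, 4 of them over 0.1). Of the 5 TLR3-MSC joints, 1 correlated best with its own number. These 5 pairs are too few to settle whether the numbers pair the joints in any way. With the replicate block 43 genes were higher and 12 lower past the 2-fold threshold, and 228 were higher and 255 lower at an unadjusted p of at most 0.05. Among named genes the block removed the calls of Ifit3, Hspe1, Sbsn and Erbb3 and added that of Bglap. Depth, from 28385967 reads upward, limits genes of few reads such as Fcrl6 and Mkrn3.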

Other observations

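The joints of a group differed from one another by far more than the sampling of reads. In the MSC group joints 1 and 3 were the most alike, with a chi-square per gene of 28.1, and joints 2 and 4 the least alike, at 508. In the TLR3-MSC group the same measure ran from 61.2 for joints 2 and 3 to 280 for joints 1 and 3. The gene with the largest share of reads was Hbb-bs, a haemoglobin chain of red cells, Myh4, a myosin of fast muscle, or Fn1, which encodes fibronectin, and it took from 2.09% to 3.25% of the reads of a joint in these groups. MSC joint 2 and TLR3-MSC joint 5 were the joints in which Fn1 led.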
